A study of Mus musculus with 18 samples.

Results

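The 40 genes described here encode proteins that carry a cell through mitosis, from the kinases and cyclins that start it to the motors, kinetochore parts and condensins that move and pack the chromosomes. They were taken as a fixed list of symbols, which was chosen with earlier results of these data known. A gene counted as measured where a probe set of the array carried that symbol alone. All 40 were measured, among 19938 genes in all. Top2a alone had 2 probe sets, and the brighter one on average stands for it. Expression was measured on 1-colour arrays in small intestinal crypt cells of C57Bl6/J mice aged 4 months with the genotype FltpZV/+, which puts 1 reporter allele at the Flattop locus. Cells were sorted by their green fluorescence into a gate without the reporter (called FVR in the labels), a gate with a low signal and a gate with a high signal. Each gate had 2 arrays, each from a pool of 2 animals, and all 3 gates carried the same reporter allele, with no other treatment named in the labels. The labels do not say whether gates with the same replicate number came from the same animals, so p-values measure the spread between arrays. The other 12 of the 18 samples, from a lineage-tracing line, are not analysed here.

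Values are RMA values on the log2 scale, so that a difference of 1 is a 2-fold change. The median over all probe sets lay between 4.54 and 4.74 on the 6 arrays. A background level of 4.23 was set from 1207 olfactory, vomeronasal and trace amine receptor genes, and 61.4% to 69.6% of genes lay above it, with the largest share on high replicate 2. Replicate arrays correlated across genes at r = 0.981 in the negative, 0.975 in the low and 0.946 in the high gate. Epithelial markers were present in all gates, 7 of 7 above background on both arrays of each. Their summed level (log2 of the sum over the list) was 13.17 to 13.20 in negative, 12.68 to 12.72 in low and 12.29 to 12.82 in high cells. This does not show that other cells were absent, and markers of T cells and other types are given below.

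The crypt is the dividing compartment of the intestinal lining. Stem cells at its base and their transit-amplifying daughters cycle rapidly, while Paneth, enteroendocrine, goblet and absorptive cells have left the cycle. Mitotic genes are transcribed late in the cycle. In resting cells the DREAM complex holds many of them silent through a promoter element, the cell cycle genes homology region (CHR), and in dividing cells B-MYB and FOXM1 activate them through the same element. A CCAAT box bound by NF-Y often lies beside it.

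These promoter features were looked for in RefSeq windows on GRCm38.p6 that reach from 250 bases before to 50 bases after the annotated start. Windows were found for 34 of the 40 genes, and not for Aurkb, Tpx2, Ccna2, Kif20a, Smc4 and Dlgap5. The letters TTTGAA, the core of the CHR, were present on either strand in 28 of 34 windows (82.4%), against 37.8% of 82 windows of other mitotic genes and 15.2% of 15614 windows of all genes of the array. Within the stretch from 60 bases before to 20 bases after the start, 44.1% of the windows held it. The share there was 24.4% for other mitotic genes and 3.27% over all genes. The letters CCAAT were present in 26 windows (76.5%), against 38.2% over all genes, and 17 held at least 2 boxes, against 13.0% over all genes. Both elements occurred in 24 windows. The E2F sites TTTCCCGC and TTTGGCGC were present in 3 windows (8.82%), against 8.54% for other mitotic genes and 2.32% over all genes. No match to any of these motifs was found in the windows of 4 genes (Birc5, Mad2l1, Nuf2 and Nusap1). Promoters of unlike genes differ in base composition and the shares were not tested, so they are a description of the letters present.

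The 250 bases before the start are shown for 4 genes, which had the smallest p over the 3 gates among those with TTTGAA in the window, and for Cdk1 and Ccnb2, which were chosen after their values were seen. Sequences run 5′ to 3′ on the strand of the gene, and capitals mark CHR, CCAAT and E2F letters or their reverse complements. The stretches lie at chr19:37376132-37376381 on the plus strand (Kif11), chr9:122950831-122951080 on the plus strand (Kif15), chr6:125191587-125191836 on the minus strand (Ncapd2), chr4:52438971-52439220 on the plus strand (Smc2), chr10:69352913-69353162 on the minus strand (Cdk1) and chr9:70421555-70421804 on the minus strand (Ccnb2).
Kif11: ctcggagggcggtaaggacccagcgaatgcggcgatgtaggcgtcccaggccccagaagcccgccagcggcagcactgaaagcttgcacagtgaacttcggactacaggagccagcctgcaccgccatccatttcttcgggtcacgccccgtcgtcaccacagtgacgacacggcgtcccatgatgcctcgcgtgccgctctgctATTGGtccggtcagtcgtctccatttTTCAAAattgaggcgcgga
Kif15: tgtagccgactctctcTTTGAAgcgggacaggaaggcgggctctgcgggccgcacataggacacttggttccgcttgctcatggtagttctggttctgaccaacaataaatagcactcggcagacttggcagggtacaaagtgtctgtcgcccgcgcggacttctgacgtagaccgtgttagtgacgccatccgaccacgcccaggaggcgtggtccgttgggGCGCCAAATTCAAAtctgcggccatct
Ncapd2: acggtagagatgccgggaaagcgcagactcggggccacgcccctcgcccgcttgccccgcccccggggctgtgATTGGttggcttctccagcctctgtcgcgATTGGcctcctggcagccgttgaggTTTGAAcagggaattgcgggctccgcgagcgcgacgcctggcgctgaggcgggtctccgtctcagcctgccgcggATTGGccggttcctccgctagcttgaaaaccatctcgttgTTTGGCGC
Smc2: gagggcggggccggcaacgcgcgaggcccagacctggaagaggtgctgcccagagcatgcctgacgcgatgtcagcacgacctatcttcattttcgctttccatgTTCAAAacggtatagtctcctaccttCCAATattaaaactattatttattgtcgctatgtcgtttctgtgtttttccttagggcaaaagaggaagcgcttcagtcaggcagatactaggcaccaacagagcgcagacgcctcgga
Cdk1: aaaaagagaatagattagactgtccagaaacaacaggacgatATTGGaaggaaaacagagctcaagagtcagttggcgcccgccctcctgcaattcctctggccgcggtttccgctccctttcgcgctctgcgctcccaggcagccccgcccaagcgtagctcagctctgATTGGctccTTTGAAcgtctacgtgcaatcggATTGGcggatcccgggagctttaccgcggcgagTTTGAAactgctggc
Ccnb2: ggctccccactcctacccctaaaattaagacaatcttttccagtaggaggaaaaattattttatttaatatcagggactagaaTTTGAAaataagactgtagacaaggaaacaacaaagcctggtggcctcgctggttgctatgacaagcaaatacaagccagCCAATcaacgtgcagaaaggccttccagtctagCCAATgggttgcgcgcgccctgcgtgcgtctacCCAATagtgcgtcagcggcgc

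With the annotated start as position 0, the CHR letters of Kif11 begin at -19 and those of Cdk1 at -71 and -15, each with a CCAAT box upstream, at -45 in Kif11 and at -80 and -48 among the boxes of Cdk1. Kif15 has no CCAAT box in its window, and its E2F letters at -27 run directly into CHR letters at -19. Ncapd2 holds 3 CCAAT boxes around a CHR match at -123 and E2F letters at -8. In Smc2 the pair lies further up, with CHR letters at -145 and a CCAAT box at -119, and in Ccnb2 the 3 boxes at -87, -54 and -21 are evenly spaced below CHR letters at -167. A second CHR match of Smc2 and of Ccnb2 lies beyond the start and is not printed.

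**Figure D1:**
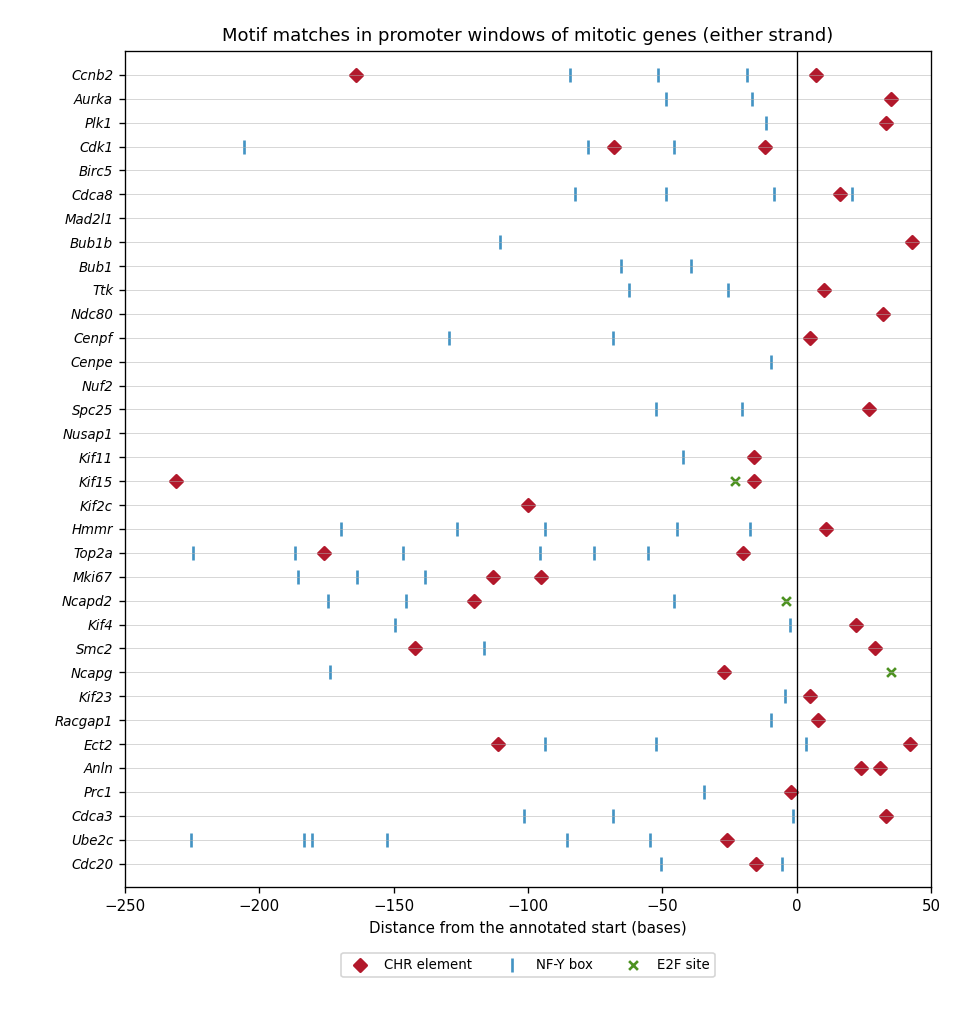
Positions of CHR, CCAAT (NF-Y box) and E2F letters on either strand, in bases from the annotated start (x axis), in the windows of 34 mitotic genes (y axis). Each symbol is the centre of 1 match, and the windows of 4 genes hold none; CHR matches gather around the start and CCAAT boxes upstream of it.

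Mitotic genes were lower in low cells than in negative cells. In the fit of limma over all 19938 genes, 31 of 40 fell at an adjusted p under 0.05 and 0 rose. Of all genes 2.54% fell and 3.42% rose, 5.96% in all. The median change was -1.82 on the log2 scale, a 3.53-fold lower level, with single genes between -2.54 and -0.54, while the median over all genes was -0.03. Both low arrays lay below both negative arrays for 40 of 40 genes, as for 28.5% of all genes (a further 23.0% lay above). In sorted bulk cells, fewer dividing cells and less mitotic RNA per cell cannot be told apart.

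Leaving out either negative array or low replicate 2 left 1 array in that gate. Calls then became fewer both among the mitotic genes and over all genes, so the drop is not particular to the mitotic genes. The median change stayed between -1.93 and -1.71 when single arrays were left out. Calls that held under all alternatives run, each single array left out included, were those of 5 genes, Cdk1, Kif11, Kif15, Ncapd2 and Smc2. With arrays centred on their medians, the genes called over the whole array divided into 577 higher and 586 lower, against 681 higher and 507 lower as deposited, and 30 of the 40 mitotic genes fell.

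High cells also had lower mitotic expression than negative cells. Here 25 of 40 genes fell and 0 rose, while of all genes 3.35% fell and 1.36% rose, 4.71% in all. The median change was -1.35, or 2.55-fold lower, with a range from -1.91 to -0.31, against a median over all genes of 0.10. For 39 of 40 genes both high arrays lay below both negative arrays, as for 22.4% of all genes (32.9% lay above), and Racgap1 was the exception.

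Quantile normalization gave a median of -1.14 and 15 calls among the 40 genes, with 324 genes of the whole array higher and 297 lower in place of 272 and 667. Leaving out either negative array left 1 array in that gate, and the calls among the mitotic genes did not hold. Calls over all genes also became far fewer. The median change of the mitotic genes was -1.32 without negative replicate 1 and -1.39 without negative replicate 2. Leaving out high replicate 2 or either low array also gave fewer calls, among the mitotic genes and over all genes.

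**Figure D2:**
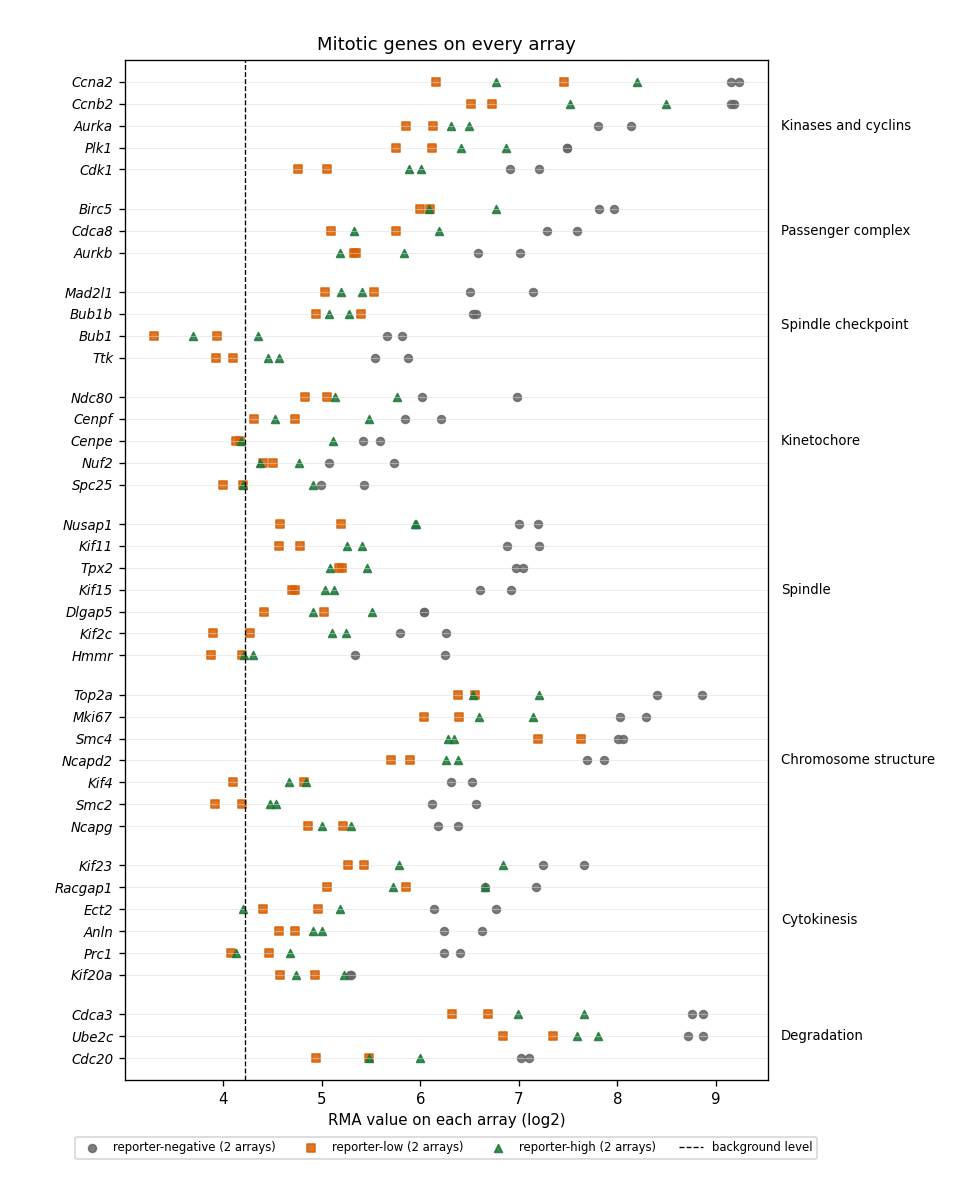
RMA value (x axis, log2) of the 40 mitotic genes (y axis, by role) on each of the 6 arrays; each symbol is 1 array and the dashed line is the background level of 4.23. Negative arrays lie to the right of both low arrays for all 40 genes, and 6 genes have both low arrays below the background level.

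**Figure D3:**
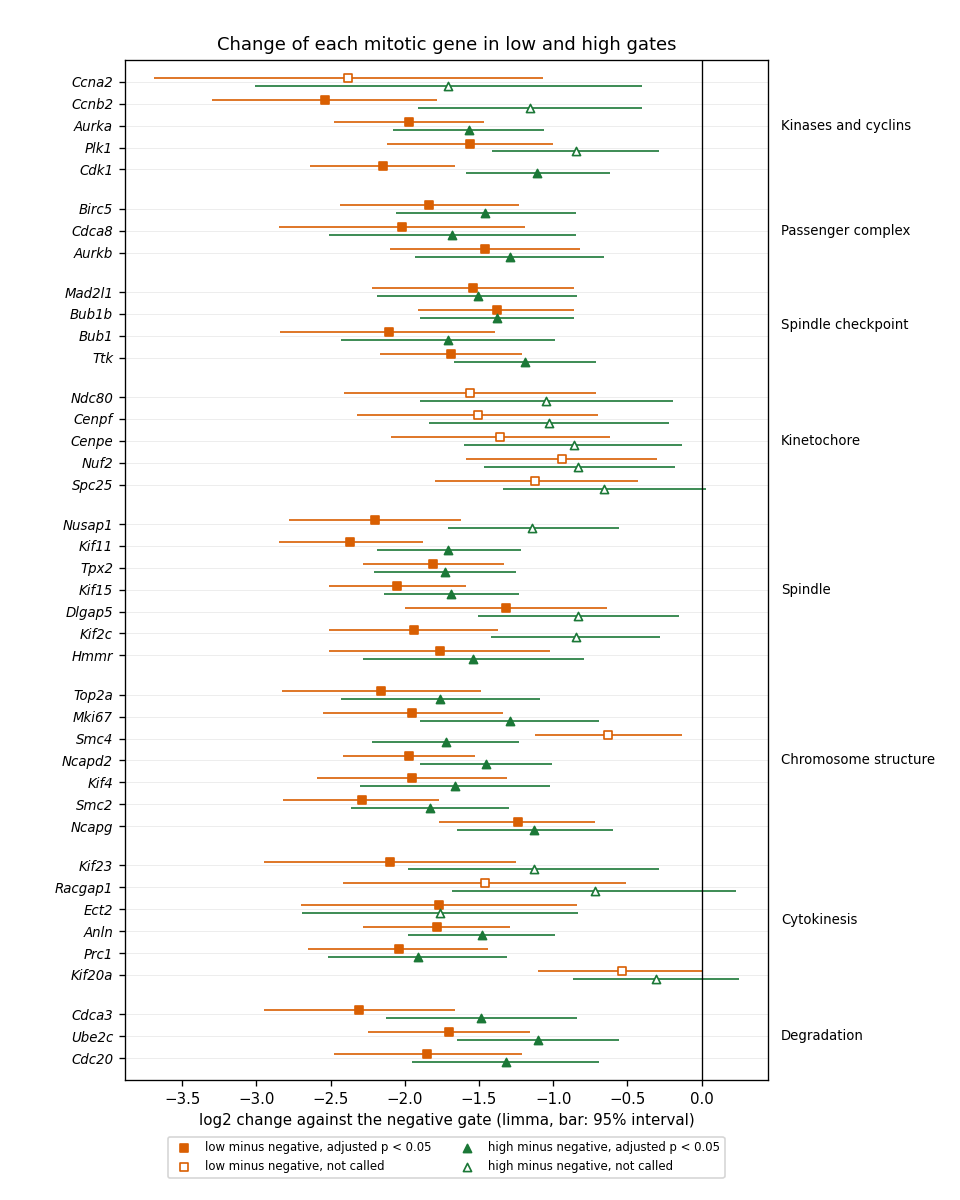
Change against the negative gate (x axis, log2, limma estimate with its 95% interval) of each mitotic gene (y axis, by role) in low and in high cells. Filled symbols passed an adjusted p of 0.05 (31 genes in low and 25 in high cells) and open symbols did not. All 80 estimates lie below 0. Of all 19938 genes, 10938 in low and 8110 in high cells lie below 0.

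The kinases and cyclins that start mitosis had a median log2 change of -2.15 in low cells, where 4 of 5 fell. Single genes of this role lay between -2.54 and -1.56. Cdk1, the kinase whose activation commits the cell to mitosis, stood at 6.91 and 7.20 on the negative, 5.05 and 4.76 on the low, and 5.89 and 6.01 on the high arrays. The 3 gates did not overlap. Cdk1 fell 4.43-fold in low cells (log2 change -2.15, SE 0.21, adjusted p = 0.00324) and 2.15-fold in high cells (-1.11, SE 0.21, adjusted p = 0.0355). Aurka, the centrosome kinase that matures the spindle poles, stood at 7.80 and 8.14 on the negative, 5.86 and 6.13 on the low, and 6.49 and 6.31 on the high arrays. It fell in both gates, with log2 changes of -1.97 in low (adjusted p = 0.00461) and -1.57 in high cells (adjusted p = 0.0172).

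Ccnb2, a B-type cyclin partner of Cdk1, was at 9.18 and 9.15 on the negative, 6.73 and 6.51 on the low, and 8.49 and 7.52 on the high arrays. Its 5.82-fold fall in low cells was the largest among the mitotic genes (log2 change -2.54, SE 0.32, adjusted p = 0.00741), while in high cells the change of -1.16 did not pass (adjusted p = 0.0976) and its arrays lay 0.97 apart. Plk1, which acts from mitotic entry to exit, fell by 1.56 in low cells (adjusted p = 0.0146) and was at -0.85 in high cells (adjusted p = 0.0994). Ccna2, the cyclin of S phase and early mitosis, was not called in either gate, although its changes were -2.38 and -1.71, and its arrays differed by 1.3 in the low and 1.43 in the high gate (SE 0.55). The low-cell calls of Ccnb2, Plk1 and Aurka were lost without negative replicate 2, and those of Ccnb2 and Plk1 also without negative replicate 1 and a low array (replicate 2 and replicate 1, in that order), at adjusted p from 0.0534 to 0.116. In high cells Aurka lost its call without either negative array (0.108 to 0.14), and Cdk1 without any single one of the 6 arrays (0.0529 to 0.217).

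The chromosomal passenger complex corrects faulty kinetochore attachments and later directs cytokinesis, and the 3 of its genes in this list fell in both gates. Birc5, also known as survivin, stood at 7.81 and 7.96 on the negative, 6.00 and 6.10 on the low, and 6.77 and 6.09 on the high arrays. Cdca8 (borealin) had 7.59 and 7.29 on the negative, 5.75 and 5.09 on the low, and 6.19 and 5.33 on the high arrays. Aurkb, the kinase of the complex, had 6.59 and 7.01 on the negative, 5.33 and 5.35 on the low, and 5.83 and 5.19 on the high arrays. In each gene the low and high arrays overlapped each other and lay below the negative arrays. In low cells the log2 change was -1.84 for Birc5 (adjusted p = 0.0109), -2.02 for Cdca8 (0.0221) and -1.46 for Aurkb (0.0267). In high cells it was -1.46 (adjusted p = 0.03), -1.68 (0.047) and -1.29 (0.0467) in the same order. In low cells all 3 lost their calls without negative replicate 1, negative replicate 2 or low replicate 2, and Aurkb and Birc5 also without low replicate 1 (adjusted p 0.0619 to 0.179). In high cells they were lost without either negative or either low array, and for Aurkb and Cdca8 also without high replicate 2 (0.0593 to 0.258).

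The 4 listed genes of the spindle assembly checkpoint, which delays anaphase until the chromosomes are attached, fell in both gates. Other checkpoint genes outside the list were not called, among them Bub3 at -0.47 in low (adjusted p = 0.378) and -0.25 in high cells (0.558) and Mad1l1 at -0.64 (0.447) and -0.51 (0.432). Ttk (MPS1), the kinase that starts checkpoint signalling, had 5.54 and 5.88 on the negative, 3.93 and 4.10 on the low, and 4.46 and 4.57 on the high arrays. Bub1, a checkpoint kinase at the kinetochore, had 5.66 and 5.81 on the negative, 3.94 and 3.30 on the low, and 3.70 and 4.35 on the high arrays. Bub1b (BUBR1), part of the complex that inhibits the anaphase-promoting complex, had 6.57 and 6.53 on the negative, 5.40 and 4.94 on the low, and 5.28 and 5.07 on the high arrays. Low arrays of Ttk and Bub1 lay below background, so their log2 falls in low cells are given as bounds against that level, at least 1.48 for Ttk (adjusted p = 0.00638) and at least 1.51 for Bub1 (adjusted p = 0.0121). Bub1b fell alike in low (log2 change -1.38, adjusted p = 0.017) and high cells (-1.38, adjusted p = 0.0237), and its change between those gates was 0.01. Mad2l1, which binds Cdc20 while chromosomes are unattached, fell by 1.54 in low (adjusted p = 0.0275) and fell by 1.51 in high cells (adjusted p = 0.0364).

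In high cells the log2 change was -1.19 for Ttk (adjusted p = 0.0268) and -1.71 for Bub1 (adjusted p = 0.0313). In low cells the call of Ttk was lost without negative replicate 2, those of Bub1 and Bub1b without either negative array or low replicate 2, and that of Mad2l1 without any negative or low array (adjusted p 0.0582 to 0.165). In high cells all 4 were lost without either negative array. Bub1 was also lost without high replicate 1, Bub1b without high replicate 2, Ttk without either low array or high replicate 2, and Mad2l1 without any single array (0.0503 to 0.203).

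None of the 5 listed kinetochore genes, whose proteins link chromosomes to spindle microtubules, was called by limma in either gate. An unadjusted p under 0.05 was held by 5 in low and 4 in high cells. Of all 19938 genes, 3683 in low and 4430 in high cells had such a p. Outside the list the kinetochore scaffold Knl1 was called in both gates, at -2.27 in low (adjusted p = 0.00655) and -2.48 in high cells (0.0114, but up to 0.12 without either negative array). Ndc80, which binds the microtubule, stood at 6.98 and 6.02 on the negative, 4.83 and 5.05 on the low, and 5.14 and 5.76 on the high arrays. Cenpf, which accumulates in G2 and binds kinetochores, had 6.21 and 5.85 on the negative, 4.73 and 4.31 on the low, and 5.48 and 4.53 on the high arrays. Cenpe, a kinesin that aligns chromosomes, had 5.42 and 5.59 on the negative, 4.17 and 4.13 on the low, and 5.11 and 4.18 on the high arrays. In all 5 genes the low and high arrays lay below the negative arrays. Median changes were -1.36 in low and -0.86 in high cells, and adjusted p ran from 0.0521 (Cenpf) to 0.108 (Nuf2) in low cells. Nuf2 and Spc25, partners of Ndc80 in 1 complex, had changes of -0.94 and -1.12 in low and -0.83 and -0.66 in high cells. Both low arrays of Cenpe and Spc25 lay below background, which makes their low-cell differences at least 1.28 and at least 0.99. The negative arrays of Ndc80 lay 0.97 apart, the widest gap of any mitotic gene in that gate.

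Spindle motors and assembly factors all fell in low cells, 7 of 7, and 4 fell in high cells. Kif11 (Eg5), the kinesin that pushes the spindle poles apart, had 7.20 and 6.88 on the negative, 4.78 and 4.57 on the low, and 5.26 and 5.41 on the high arrays. The gates did not overlap, and its 5.16-fold fall in low cells had the smallest adjusted p of the 40 genes (log2 change -2.37, SE 0.20, adjusted p = 0.00238). Kif15, a kinesin that can stand in for Kif11, had 6.61 and 6.92 on the negative, 4.70 and 4.73 on the low, and 5.13 and 5.03 on the high arrays. It fell by 2.05 in low cells (adjusted p = 0.00322), and its change of -1.69 in high cells had the smallest adjusted p there (0.0122). Tpx2, the activator of Aurka on the spindle, had 7.04 and 6.97 on the negative, 5.21 and 5.18 on the low, and 5.46 and 5.08 on the high arrays. Its changes were -1.81 in low (adjusted p = 0.00506) and -1.73 in high cells (adjusted p = 0.013), 0.08 apart. Kif11 in high cells fell by 1.71 (adjusted p = 0.014).

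Nusap1, a microtubule bundler, fell by 2.20 in low cells (adjusted p = 0.00506) and was at -1.14 in high cells (adjusted p = 0.0507). Kif2c (MCAK), a kinesin that shortens microtubules, fell by 1.94 in low cells (adjusted p = 0.00687) and was at -0.85 in high cells (adjusted p = 0.103). Dlgap5, a stabiliser of kinetochore fibres, fell by 1.32 in low cells (adjusted p = 0.0461) and was at -0.83 in high cells (adjusted p = 0.156). Hmmr, a spindle-associated hyaluronan receptor, fell by at least 1.57 in low cells, where no array was above background (adjusted p = 0.0244), and fell by 1.54 in high cells (adjusted p = 0.0447). Dlgap5 lost its low-cell call under quantile normalization (adjusted p = 0.0693). In low cells calls were lost without negative replicate 1 for Kif2c, without either negative array for Nusap1 and Tpx2, without negative replicate 1 or either low array for Hmmr, and without any negative or low array for Dlgap5 (adjusted p 0.051 to 0.227). In high cells Kif11, Kif15 and Tpx2 were lost without either negative array (0.0993 to 0.128) and Hmmr without any single array (0.0751 to 0.194).

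Genes of chromosome structure fell in both gates with 1 exception, 6 of 7 in low and 7 of 7 in high cells. Smc2, a core subunit of condensin, stood at 6.57 and 6.12 on the negative, 4.19 and 3.92 on the low, and 4.48 and 4.54 on the high arrays. Low arrays were below background, so its fall there is at least 2.12 (adjusted p = 0.00338), and in high cells it fell by 1.83 (adjusted p = 0.0142). Ncapd2, a regulatory condensin subunit, had 7.86 and 7.69 on the negative, 5.90 and 5.70 on the low, and 6.26 and 6.38 on the high arrays. Its changes were -1.97 in low (SE 0.19, adjusted p = 0.00322) and -1.45 in high cells (adjusted p = 0.0164). Smc4, the partner of Smc2 in condensin, had 8.06 and 8.01 on the negative, 7.63 and 7.19 on the low, and 6.28 and 6.34 on the high arrays. Among the 40 genes it alone had its lowest mean in high cells. Smc4 fell by 1.72 in high cells (adjusted p = 0.0142), was at -0.63 in low cells (adjusted p = 0.16), and was lower in high than in low cells (log2 change -1.10, SE 0.21, adjusted p = 0.0355). Ncapg, another condensin subunit, fell by 1.24 in low (adjusted p = 0.024) and fell by 1.13 in high cells (adjusted p = 0.0399).

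Top2a, the topoisomerase that untangles sister chromatids, stood at 8.86 and 8.40 on the negative, 6.55 and 6.38 on the low, and 7.20 and 6.53 on the high arrays. It fell by 2.16 in low (adjusted p = 0.00847) and fell by 1.76 in high cells (adjusted p = 0.0237). A second Top2a probe set, much dimmer, read 4.24 and 4.64 on the negative, 3.63 and 3.64 on the low, and 5.07 and 4.24 on the high arrays. Its low arrays lay below background and its negative arrays near it, so no direction is read from it. With it in place of the brighter one, Top2a was not called in low (adjusted p = 0.214) or high cells (0.22, adjusted p = 0.692). Mki67 (Ki-67), the coat of mitotic chromosomes and a standard label of cycling cells, had 8.29 and 8.03 on the negative, 6.39 and 6.04 on the low, and 7.14 and 6.60 on the high arrays. Mki67 fell by 1.95 in low (adjusted p = 0.00847) and fell by 1.29 in high cells (adjusted p = 0.0403). Kif4, a chromosome-bound kinesin, fell by 1.95 in low (adjusted p = 0.0105) and fell by 1.66 in high cells (adjusted p = 0.0245).

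Among these chromosome genes, low-cell calls were lost without either negative array for Kif4, Mki67, Top2a and Ncapg, for Mki67, Top2a and Ncapg also without low replicate 2 and for Ncapg without low replicate 1 (adjusted p 0.052 to 0.175). High-cell calls of Ncapd2, Smc2, Smc4, Kif4, Top2a, Mki67 and Ncapg were lost without either negative array. Kif4, Top2a and Mki67 were also lost without high replicate 2, Mki67 without either low array, and Ncapg without any single array (0.0506 to 0.24). Of the 4 condensin genes, Ncapd2 and Ncapg had higher means in high than in low cells, by 0.52 and 0.12, and Smc2 by at least 0.29 against background, none of which passed.

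Cytokinesis genes were split, with 4 of 6 falling in low and 2 in high cells. Anln (anillin), a scaffold of the contractile ring, stood at 6.63 and 6.24 on the negative, 4.73 and 4.57 on the low, and 5.0 and 4.91 on the high arrays. Prc1, which bundles the central spindle, had 6.24 and 6.40 on the negative, 4.47 and 4.08 on the low, and 4.68 and 4.13 on the high arrays. Kif23 (MKLP1), the motor of the centralspindlin complex, had 7.66 and 7.24 on the negative, 5.43 and 5.27 on the low, and 6.84 and 5.78 on the high arrays. In each gene both low and both high arrays lay below the negative arrays, and the high arrays of Kif23 lay 1.06 apart. In low cells Anln, Prc1 and Kif23 fell, with log2 changes of -1.78 (adjusted p = 0.00595), -2.04 (0.00729) and -2.10 (0.0206). In high cells Anln fell by 1.48 (adjusted p = 0.0182) and Prc1 by the most of the 40 genes (-1.91, adjusted p = 0.0172), with Kif23 at -1.13 (0.127). The high array of Prc1 at 4.13 lay below background.

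Ect2, which activates RhoA at the cleavage site, fell by 1.77 in low cells (adjusted p = 0.0491) and was at -1.76 in high cells (adjusted p = 0.056). Racgap1, the centralspindlin partner of Kif23, was at -1.46 in low (adjusted p = 0.0935) and -0.72 in high cells (adjusted p = 0.332), and Kif20a, a late-mitotic kinesin, had the smallest differences of the 40 genes, -0.54 and -0.31. Anln lost its low-cell call without negative replicate 1, Prc1 without either negative array or low replicate 2, and Ect2 and Kif23 without any negative or low array (adjusted p 0.0528 to 0.273). The call of Ect2 was also lost under 3 other settings, among them quantile normalization (0.0508 to 0.0967). The high-cell calls of Anln and Prc1 were lost without either negative array (0.117 to 0.14).

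Genes of mitotic protein degradation fell in both gates, 3 of 3. Cdc20, which activates the anaphase-promoting complex, had 7.10 and 7.02 on the negative, 5.48 and 4.94 on the low, and 5.48 and 6.00 on the high arrays. Ube2c, the ubiquitin-conjugating enzyme of that complex, had 8.87 and 8.72 on the negative, 7.35 and 6.84 on the low, and 7.59 and 7.80 on the high arrays. Cdca3, an F-box-like trigger of mitotic entry, had 8.87 and 8.76 on the negative, 6.32 and 6.69 on the low, and 6.99 and 7.66 on the high arrays. In Ube2c and Cdca3 the 3 gates did not overlap, with the high arrays between the others. In low cells the log2 change was -2.31 for Cdca3 (adjusted p = 0.00606), -1.85 for Cdc20 (0.0121) and -1.70 for Ube2c (0.00959). In high cells it was -1.49 for Cdca3 (adjusted p = 0.0332), -1.32 for Cdc20 (0.0431) and -1.10 for Ube2c (0.0475). All low-cell calls were lost without either negative array, and those of Cdc20 and Ube2c also without low replicate 2 (0.0574 to 0.106). The high-cell calls were lost without either negative or either low array, for Cdc20 also without high replicate 1 and for Ube2c without either high array (0.0559 to 0.26).

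Against the negative gate, 24 genes were called in both gates, 7 in low cells (Ccnb2, Dlgap5, Ect2, Kif23, Kif2c, Nusap1 and Plk1), Smc4 in high cells, and 8 in neither. The comparisons share the negative arrays, so a gene called in both does not rest on independent samples, and a call in 1 gate alone does not show that the gates differ. That difference was tested directly between high and low cells. There 2 of 40 genes were called, 1 in each direction, a share near the 4.91% of all genes called (1.01% higher and 3.89% lower). Cdk1 was higher in high cells by 1.04 (SE 0.21, adjusted p = 0.0398) and Smc4 lower, as given above. Behind them came Kif2c at 1.09 (adjusted p = 0.0541), Nusap1 at 1.06 (0.0608) and Ccnb2 at 1.38 (0.0616), which did not pass. Cdk1 lost its call without any negative or low array or high replicate 2, and Smc4 without any single array (adjusted p 0.0564 to 0.202). With the replicate number as a block, Cdk1 was not called (adjusted p = 0.0547), while Ccnb2 was (0.0456). With quantile normalization 3 genes were called, all higher.

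The means nonetheless ran in 1 order. For 39 of the 40 genes the mean was highest in negative, lower in high and lowest in low cells, an order held by 13.8% of all genes. In 20 genes the arrays of the 3 gates followed that order without any overlap, as in 2.50% of all genes. The median change from low to high was 0.46 against 0.13 over all genes, and it lay between 0.31 and 0.52 when single arrays were left out. Both high arrays lay above both low arrays in 20 genes, as for 35.3% of all genes, and below them in Smc4, as for 20.4%. At the other end, Bub1b, Mad2l1 and Ect2 had changes of 0.01, 0.02 and 0.02.

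**Figure D4:**
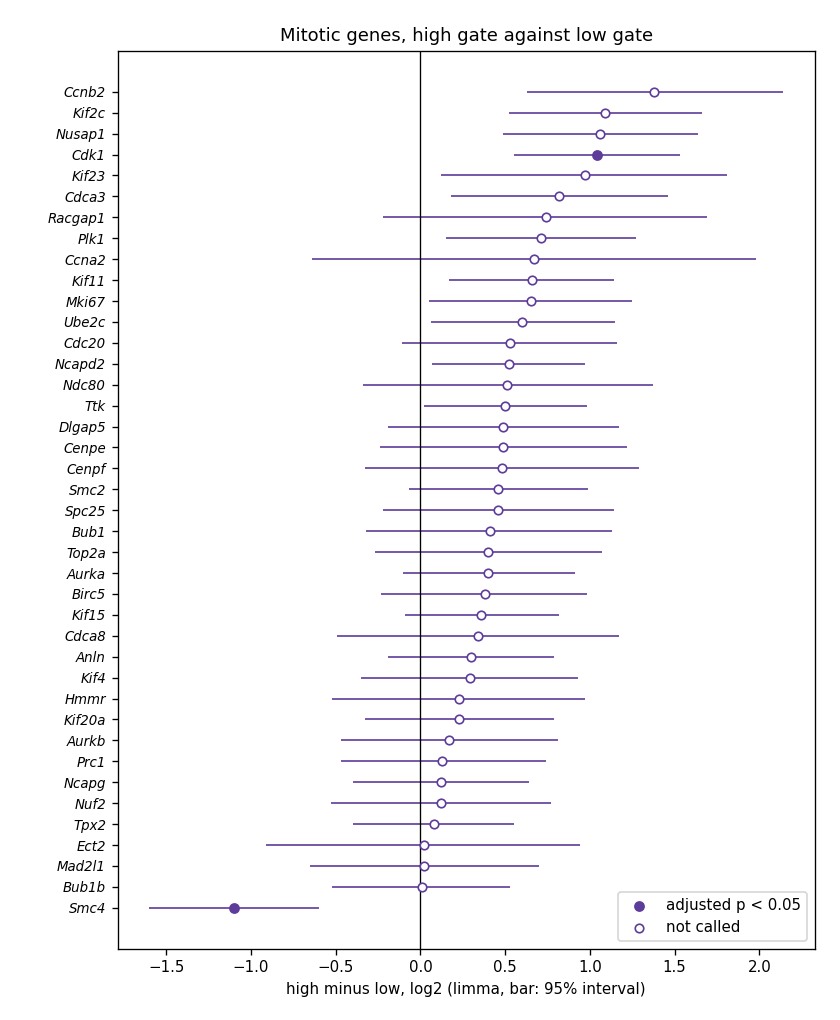
Change from low to high cells (x axis, log2, limma estimate with its 95% interval) of the 40 mitotic genes (y axis, sorted by estimate). Estimates of 39 genes lie above 0 and that of Smc4 below, against 12301 of all 19938 genes above 0. Estimates of 6 genes rest on low arrays below background. Cdk1 and Smc4 (filled) passed an adjusted p of 0.05.

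The high gate was the least uniform for these genes. Its arrays differed by a median of 0.48 over the mitotic genes, against 0.31 over all genes, while the figures were 0.28 against 0.19 in the negative and 0.35 against 0.20 in the low gate. In the high gate 19 genes differed by more than 0.5, of which 13 were higher on replicate 1 (Ccna2 by 1.43, Kif23 by 1.06, Ect2 by 0.99) and 6 on replicate 2 (among them Spc25, Cdca3 and Cdc20). The median over the mitotic genes was 5.37 on each of the high arrays, while their summed level was 11.19 on 1 array and 11.51 on the other. Gene by gene, replicate 1 minus replicate 2 had a median of 0.10, against -0.07 over all genes. The array medians over the mitotic genes were 6.84 and 6.90 in the negative gate, and 5.21 and 4.94 in the low gate.

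Low signal limits some of the values. All 40 genes were above background on both negative arrays, 31 on both low arrays and 34 on both high arrays. In the low gate Kif2c, Kif4 and Prc1 were above it on 1 array, and Bub1, Cenpe, Hmmr, Smc2, Spc25 and Ttk on neither. In the high gate Bub1, Cenpe, Ect2, Hmmr, Prc1 and Spc25 were above it on 1 array, and the mean of Bub1 (4.03) lay below it. The high-cell changes of these genes rest in part on values at the floor. Across the 40 genes the level in negative cells and the change in low cells had a Spearman correlation of -0.52, and for high cells it was -0.30. Both measures share the negative arrays, so this is a description of how changes are smaller for dimmer genes.

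Other genes of the cycle had smaller median changes in the same direction. Of 101 other mitotic genes, 36 fell and 0 rose in low cells and 21 fell and 0 rose in high cells, with medians of -0.80 and -0.74. From low to high cells their median was 0.14 against 0.13 over all genes, with 61 of 101 above 0 and 40 below. Over all genes 12301 of 19938 lay above 0. The 40 mitotic genes had 39 above 0. The lists were chosen with earlier results of these data known, so such contrasts between them are only a description. Between high and low cells 2 of the 101 were called lower in high cells and 2 higher, against 3.89% and 1.01% of all genes. Of 40 genes of DNA replication and its licensing, 11 fell in low and 7 in high cells and 0 rose in either, with medians of -1.02 and -0.76. Mcm6, part of the replicative helicase, had its lowest level in high cells, at 6.38 and 6.53, against 8.27 and 8.37 in negative and 7.17 and 6.91 in low cells. It fell by 1.86 in high cells (adjusted p = 0.00976, but 0.0993 to 0.119 without either negative array) and fell by 1.28 in low cells (0.0138, but 0.0956 to 0.116 without either negative array or low replicate 2). Cdc6, which loads that helicase, was at 5.26 and 5.22 in high and 5.27 and 5.26 in negative cells, and lower in low cells, at 3.66 and 4.31. Cdc6 was higher in high than in low cells (log2 change 1.25, adjusted p = 0.0395), a call lost without any array but low replicate 2 (0.0637 to 0.161).

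Of 14 G1 cyclins and cell cycle inhibitors, 2 fell and 1 rose in low cells and 2 fell in high cells. Ccnd1, the cyclin that responds to growth signals, fell by 1.15 in low (adjusted p = 0.0448) and fell by 1.33 in high cells (adjusted p = 0.0351), with calls lost without any negative or low array, and in high cells also without high replicate 2 (0.0557 to 0.243). Cdkn2b, an inhibitor of cyclin-dependent kinases, fell in low cells as well, a call lost without either negative array or low replicate 2. Cdkn1c (p57), another such inhibitor, was called in the other direction. It stood at 4.94 and 5.25 in negative, 6.35 and 6.62 in low, and 5.37 and 5.44 in high cells. Its rise of 1.39 in low cells (adjusted p = 0.0134) was lost without either negative array or low replicate 2. Its change in high cells was 0.31 (adjusted p = 0.407). Cdkn1c was also called lower in high than in low cells, a call lost without any single array.

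Regulators of mitotic transcription had medians nearer to 0, -0.29 in low and -0.34 in high cells. Of 25, 5 fell in low cells (E2f2, E2f4, E2f8, Foxm1 and Myc), and in high cells 3 fell (E2f8, Foxm1 and Rbl1) and 1 rose (Nfyb), against the negative gate. Between high and low cells 2 of the 25 were called lower in high cells and 1 higher, against 3.89% and 1.01% of all genes. The 4 calls in high against negative cells were lost without either negative array. In low cells those of E2f2, E2f4 and Foxm1 were lost without any negative or low array (0.0978 to 0.189), E2f4 and Foxm1 also under quantile normalization and with an intensity trend (0.0505 to 0.0585), and E2f8 without negative replicate 2 (0.051). Foxm1, the activator that binds at CHR elements, stood at 6.54 and 6.53 on the negative, 5.58 and 5.56 on the low, and 4.58 and 4.36 on the high arrays. Unlike 39 of the 40 mitotic genes it was lowest in high cells, and the gates did not overlap. Foxm1 fell by 2.06 in high (adjusted p = 0.00621) and fell by 0.96 in low cells (adjusted p = 0.029), and was lower in high than in low cells (log2 change -1.10, adjusted p = 0.0213). Mybl2, which encodes B-MYB, had changes of -0.13 in low and 0.23 in high cells (adjusted p = 0.949 and 0.772). Over all settings the adjusted p of Foxm1 in high cells was at most 0.102. Its call between high and low cells was lost without any array but high replicate 1 (0.0529 to 0.123).

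**Figure D5:**
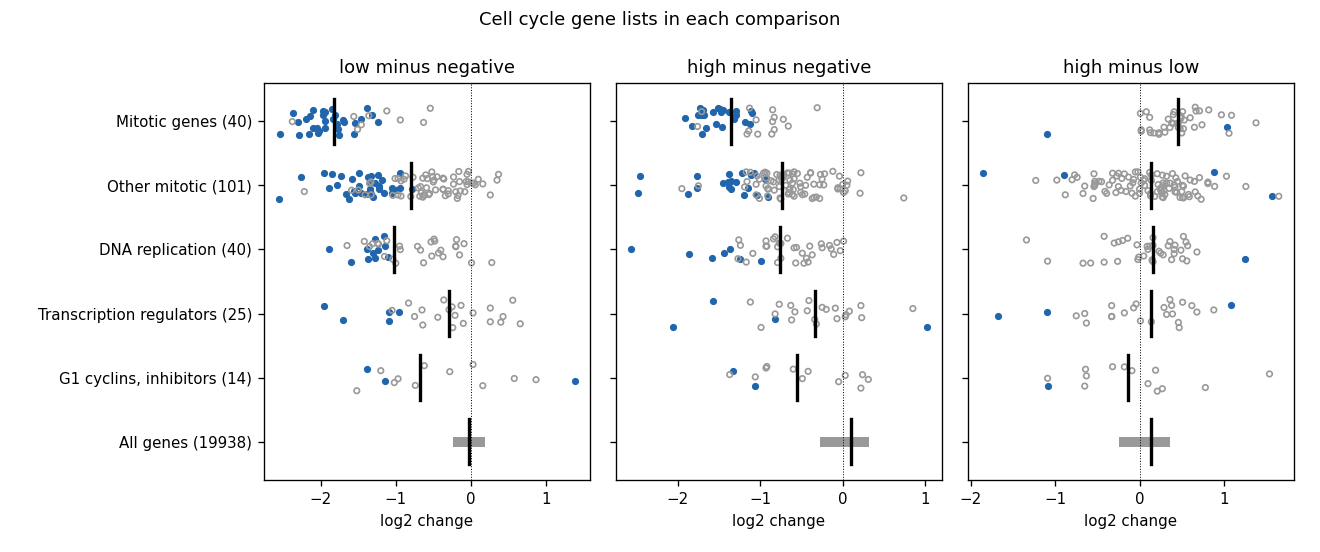
Log2 change (x axis) of each gene in 5 cell cycle lists in the 3 comparisons (panels); each point is 1 gene, filled where the adjusted p is under 0.05, the vertical bar is the list median and the grey box the interquartile range of all 19938 genes. The mitotic genes have the lowest medians against the negative gate, -1.82 and -1.35, and 0.46 from low to high cells. The lists were chosen with earlier results of these data known.

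The gates also differed in markers of cell type, and the part of these differences in the mitotic genes was not tested. Of 17 enteroendocrine markers, 17 rose in low and 2 in high cells, and their summed level (log2 of the sum over the list) was 9.39 to 9.92 in negative, 15.57 to 15.65 in low and 10.98 to 11.42 in high cells. In negative cells 7 of the 17, among them Neurod1 and Isl1, were below background on both arrays. Of 9 Paneth cell markers, 9 rose in both gates, with summed levels of 12.44 to 12.82, 15.04 to 15.18 and 15.49 to 15.75 in the same order. Of 10 stem cell markers, 2 fell in low cells and 1 rose in high cells, with summed levels of 11.69 to 11.77, 10.41 to 10.86 and 11.21 to 11.22. This order of gates was seen in the mitotic genes, and also in the sums of the goblet and erythroid markers. Of 10 enterocyte markers 2 fell in low and 4 in high cells, with sums of 13.86 to 14.34, 13.18 to 14.01 and 12.49 to 13.18. Of 7 goblet cell markers 1 fell in each gate, with sums of 14.23 to 14.44, 13.61 to 13.65 and 13.97 to 14.17. Of 6 tuft cell markers 0 were called.

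T cell markers were present in all gates, 8 of 9 above background on both arrays in each. They rose in low cells (7 of 9) and fell in high cells (8 of 9), with summed levels of 12.00 to 12.17 in negative, 13.62 on both arrays in low and 10.27 to 10.38 in high cells. Of 8 myeloid markers 3 rose in low and 2 fell in high cells, with sums of 9.82 to 9.93, 11.70 to 11.90 and 9.72 to 9.77 in the same order. Of 7 B and plasma cell markers 2 fell in both gates (9.28 to 9.49, 8.91 to 9.07 and 8.76 to 9.15), and of 2 erythroid markers 1 fell in both (8.55 to 8.74, 6.76 to 7.04 and 7.11 to 7.38). Of 6 mast cell markers 2 fell and 1 rose in each gate, and no endothelial or stromal marker was called. Mitotic genes are expressed by any dividing cell, lymphocytes included, and the part of these lists was not tested either. Summed over the 40 mitotic genes, the level was 12.63 to 12.74 in negative, 10.70 to 10.97 in low and 11.19 to 11.51 in high cells.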

How the data were processed

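Per the submitters' processing notes, the authors summarised the arrays by RMA in Affymetrix Expression Console 1.3.0.187. The deposited values, from 1.90 to 13.98, were taken as log2. Per the labels' protocols, RNA came from DNase-treated column extracts and was amplified and labelled with biotin. RMA compresses differences near the floor of the signal, and no detection calls were used. Samples were grouped by title; 12 columns of per-sample values are empty and were not used. Of 35556 probe sets, 21789 had 1 gene symbol, 1621 several and 12146 were not listed in the platform annotation; 21698 had their gene ID in the RefSeq table of GRCm38.p6, used for names. Where a gene had several probe sets (999 genes), the brightest on average stood for it, giving 19938 genes.

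A limma 3.58.1 model (lmFit, eBayes; R 4.3.3) took the 6 arrays in 1 fit of 3 gate means, with 3 residual degrees of freedom and two-sided tests. Calls required a Benjamini-Hochberg p under 0.05 over all genes. SEs are those of limma, with the spread pooled over gates; 2 arrays a gate limit the precision. The background level was the 95th percentile of receptor-gene means. Where both arrays of the dimmer gate fell short of it, the difference is a lower bound, taken against that level. The members and lists were chosen with earlier results of these data known. Values on every array are given for Cdk1, Mki67, Aurka, Birc5 and Top2a, for the 3 genes of each role with the smallest F-test p, and for genes running against the rest; Ccnb2 also falls under this rule. Of other lists, up to 4 genes with the smallest p in a comparison and genes called against their list could be named; Mybl2, Myc and others outside this rule were chosen after their values were seen. Same-numbered arrays deviated from their gate means with correlations of 0.08 to 0.10, which does not show whether they shared animals. The main fit did not take the numbers as pairs. Motifs were counted in RefSeq promoter windows with Python 3.11.15 and pandas 2.3.3; for 2 genes with several windows the first was used. Plots were made with matplotlib 3.10.9. The fit was tested on simulated data.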

Additional observations from a re-analysis of the deposited data

How the results depend on the processing

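In low against negative cells the mitotic calls lay between 29 and 37 under settings that left out no single array and kept the threshold, and in high against negative between 13 (only the 4 arrays compared) and 27. An adjusted p under 0.01 gave 17, 0 and 0 calls in low against negative, high against negative and high against low. In the latter comparisons 37 and 13 of the 40 genes had an unadjusted p under 0.05 by limma. Of all 19938 genes, 4430 and 4502 had such a p. An adjusted p under 0.10 gave 5 calls in high against low. In high against negative, only the 4 arrays compared gave 13, quantile normalization 15 and array weights 16 calls. In high against low, the 4 arrays, an intensity trend and array weights each gave 0. At an unadjusted p under 0.05 by limma these settings gave 10, 9 and 11 mitotic genes, and 3625, 4751 and 3705 of all genes. Leaving out single arrays gave 7 to 36, 0 to 25 and 0 to 2 calls, and medians of -1.93 to -1.71, -1.49 to -1.26 and 0.31 to 0.52. Quantile normalization moved the high against negative median to -1.14. The second Top2a probe set turned its high-cell change to 0.22. Over all genes, counts of 1188, 939 and 978 became 353, 61 and 319 at 0.01 and 1914, 1817 and 1771 at 0.10; array weights gave 2150, 620 and 607; the 4 arrays gave 561 and quantile normalization 621 in high against negative, and the 4 arrays 499 in high against low. Leaving out single arrays gave 187 to 1761, 13 to 1919 and 381 to 1739. The cause of these moves was not tested, beyond the fewer arrays. The fit with the replicate number as a block called 34, 25 and 2 mitotic genes, not always those of the fit without it: Aurkb, Cdc20 and Ube2c lost their calls in high against negative (adjusted p 0.0535 to 0.0577) and Cdk1 in high against low (0.0547). Whether same-numbered arrays came from the same animals is not known. Their deviations correlated at 0.08 to 0.10 across all genes, which cannot settle it. With 2 arrays a gate and 6 genes below background in low cells, small differences could not be detected.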
